A study of Mus musculus with 4 samples.

Results

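Collagens are the structural proteins of connective tissue and of basement membranes, and each is built from alpha chains that wind around each other into a triple helix. The collagen chain genes were examined here in mouse dorsal root ganglia, which hold the cell bodies of sensory neurons beside the spinal cord, at 2 levels of the body axis. Every probe set of the array whose annotation gave exactly 1 gene symbol of the form Col, a number, a and a number was taken, which found 82 probe sets of 42 genes among 45101 probe sets of the array and 18193 genes with such a symbol. Each gene was represented by its brightest probe set, the one with the highest mean intensity over the 4 arrays.

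Total RNA from freshly dissected ganglia was hybridised to Affymetrix mouse arrays, with 2 arrays for ganglia of each level. The labels name neither level, so they are called the sample-1 level and the sample-2 level after the sample titles, and a negative difference means a lower value at the sample-2 level. The labels of these arrays give no strain, age, genotype or agent beyond the fresh dissection. They also do not state whether arrays of the same level hold RNA of different animals. The p-values therefore reflect only array-to-array spread, which may be technical.

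Fibrillar collagens such as types I, III and V form the banded fibrils that give nerves and their sheaths tensile strength, and fibroblasts of the sheaths make most of them. Type IV collagen forms the sheet-like network of basement membranes, which Schwann cells, satellite glia, perineurial cells, endothelium and muscle fibres all lay down. The remaining types decorate fibrils, form beaded filaments beneath cells, build short-chain networks, anchor epithelia or span the plasma membrane. The 42 genes were sorted by these roles into 11 fibrillar chains, 8 basement membrane chains (6 of type IV and the multiplexins Col15a1 and Col18a1) and 23 others.

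All arrays had a mean of 150.0 after trimming, so the deposited intensities were on a common scale, and their number limits the precision. Arrays of the same level correlated at r = 0.987 at both levels and arrays of different levels at r = 0.982 to 0.986, over 27022 tested probe sets. The 12 sensory neuron markers on the list used were all bright enough to be tested, with a summed intensity of 49120 and 49867 on the sample-1 arrays against 52995 and 49018 at the sample-2 level. Array 2 of the sample-1 level stood apart in skeletal muscle markers, whose summed intensity was 10745 there, against 2018 on the other array of that level and between 1621 and 2445 at the sample-2 level.

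Among the collagen chains, 3 fell at the sample-2 level and 0 rose. The chains that fell were Col1a2, a chain of the type I collagen of tendon, bone and nerve sheaths, Col3a1, the only chain of the type III collagen of soft connective tissue, and Col18a1, a proteoglycan collagen of basement membranes whose cleaved end is endostatin. Of the 33 chains bright enough to be tested, 28 lay below 0, and the median log2 difference was -0.27. Over all 13542 genes tested, 51.2% lay below 0 and the median was -0.01. The test was limma on log2(intensity + 16) with Benjamini-Hochberg adjustment over all probe sets, and an adjusted p under 0.05 was called. By that rule 0.561% of all genes tested were lower and 0.295% were higher. An unadjusted p under 0.05 was found for 11 chains, all lower, against 12.4% of all genes in either direction. Both sample-2 arrays lay below both sample-1 arrays for 17 of the 33 chains, and above both for 4, against 22.3% and 20.6% of all genes tested. Without the filter on low signal all 42 chains could be fitted, 35 of them lay below 0 and 0 passed, while 10 had an unadjusted p under 0.05. Without the intensity trend in the limma fit, or with the mean of a gene's probe sets, 0 passed as well, and with arrays centred on their medians only Col18a1 did. Over all genes the calls also went down, from 116 to 3 without the filter, 1 without the trend, 35 with the mean of probe sets and 69 with centring. Neither the filter nor the trend enters the fitted difference. Those of Col1a2, Col3a1 and Col18a1 therefore stayed at -0.73, -0.47 and -1.24 by construction, and only their p-values could change. In total RNA of a whole ganglion, fewer cells of a type and less RNA per cell cannot be told apart.

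**Figure D1:**
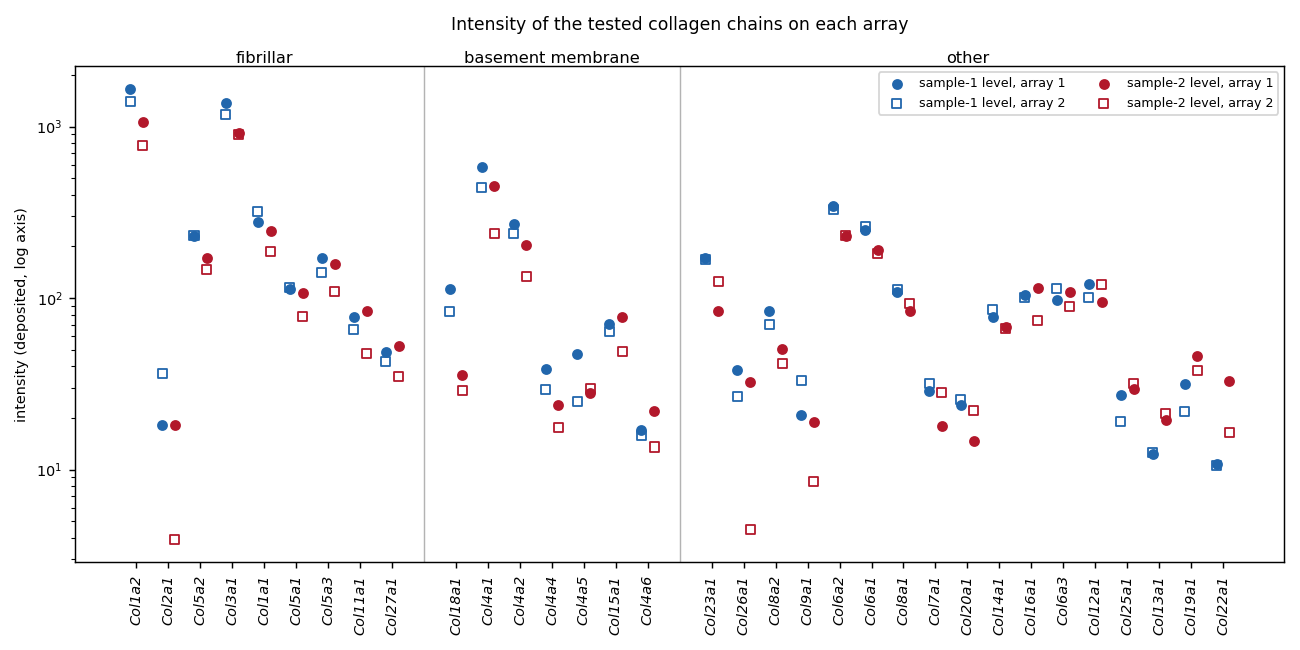
Deposited intensity (log axis) of the 33 tested collagen chains on each of the 4 arrays, in blue for the sample-1 level and red for the sample-2 level, with circles for array 1 and open squares for array 2. Col1a2, Col3a1 and Col18a1 show both red points below both blue points, and array 2 of the sample-2 level is the lowest for 22 of the 33 chains. Heights of different chains come from different probes and are not compared.

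The stretches of DNA just before the annotated start of the 3 genes that fell are given because these genes passed the threshold in the same direction. Whether they are regulated together was not tested. They are 250 bases each from RefSeq (GRCm38.p6), read 5′ to 3′ on the strand of the gene, and end at the base before the start. Col1a2 lies on the plus strand with its stretch at chr6:4505368-4505617, and Col3a1 on the plus strand with its stretch at chr1:45311288-45311537. Col18a1 lies on the minus strand and has 2 annotated starts, an outer start with its stretch at chr10:77166531-77166780 and an inner start with its stretch at chr10:77113706-77113955. Capitals mark, on either strand, the letters CCAAT of the box that the factor NF-Y is known to bind, the letters GGGCGG of the GC box known from Sp1, and the letters TATAAA of the TATA box. These matches do not overlap each other in the stretches shown.
Col1a2: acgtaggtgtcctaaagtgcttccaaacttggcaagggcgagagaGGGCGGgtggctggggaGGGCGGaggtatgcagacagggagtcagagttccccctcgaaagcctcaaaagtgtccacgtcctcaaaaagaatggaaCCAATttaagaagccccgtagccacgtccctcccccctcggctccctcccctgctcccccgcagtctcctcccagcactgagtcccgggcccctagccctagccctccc
Col3a1: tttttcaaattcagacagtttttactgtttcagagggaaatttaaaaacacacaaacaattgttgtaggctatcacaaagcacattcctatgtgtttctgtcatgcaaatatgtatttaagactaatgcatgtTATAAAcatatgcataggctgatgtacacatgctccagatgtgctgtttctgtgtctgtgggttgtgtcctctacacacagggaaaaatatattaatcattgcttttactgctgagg
Col18a1, outer start: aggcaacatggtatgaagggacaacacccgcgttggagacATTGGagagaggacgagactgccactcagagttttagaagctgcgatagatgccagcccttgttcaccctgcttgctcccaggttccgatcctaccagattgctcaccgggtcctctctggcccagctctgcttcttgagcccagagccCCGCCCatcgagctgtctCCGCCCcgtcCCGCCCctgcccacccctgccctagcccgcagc
Col18a1, inner start: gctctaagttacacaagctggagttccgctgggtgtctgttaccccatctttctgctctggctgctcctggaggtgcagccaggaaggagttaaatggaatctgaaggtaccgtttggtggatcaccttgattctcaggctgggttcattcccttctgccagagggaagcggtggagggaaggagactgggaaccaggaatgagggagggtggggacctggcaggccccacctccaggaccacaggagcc

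The Col1a2 stretch held CCAAT beginning at base -109 before the start and GGGCGG at -205 and -188. The Col3a1 stretch held TATAAA at -117 and neither of the other motifs. The outer Col18a1 stretch held CCAAT on the opposite strand at -210 and GGGCGG on the opposite strand at -61, -43 and -33, and the inner stretch held none of them. The 3 genes thus shared no single one of these motifs across all their stretches. Promoter entries were found in the RefSeq table for 33 of the 42 chains, with 36 stretches. Of these 36, CCAAT was in 13 (36.1%), GGGCGG in 21 (58.3%) and TATAAA in 5 (13.9%). Of all 32851 stretches of the same length, 33.8%, 32.7% and 12.4% held them. A match is a string of letters and not a measured site.

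By their brightest probe sets, all 9 tested fibrillar chains lay below 0, with differences from -0.73 to -0.06 and a median of -0.45. They include Col2a1, whose sign is not independent of the filter on low signal, as given below. Col1a2 measured 1664 and 1393.5 on the sample-1 arrays against 1060.0 and 779.7 at the sample-2 level. Both sample-2 arrays were lower than both sample-1 arrays. Col1a2 fell by 0.73 ± 0.13 on the log2 scale (SE, adjusted p = 0.0313). Its second probe set, at 661 and 591 against 462 and 331, differed by -0.66 ± 0.14 (adjusted p = 0.0623), and the third, at 1.35 to 8.45, was too dim to be tested.

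Col1a1, which supplies the other chains of the type I trimer, measured 279 and 319 on the sample-1 arrays against 245 and 188 at the sample-2 level. The levels did not overlap, and the difference was -0.45 ± 0.14 (adjusted p = 0.22). Its second probe set lay at -0.31 and missed the threshold too. Col3a1 measured 1364.5 and 1175 on the sample-1 arrays against 921 and 901 at the sample-2 level. Again the levels did not overlap, and Col3a1 fell by 0.47 ± 0.09 (adjusted p = 0.0461). Its second probe set, at 81.0 and 92.1 against 68.8 and 65.4, differed by -0.30 (adjusted p = 0.535).

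Type V collagen is built into type I fibrils and limits their diameter. Col5a2 measured 230.2 and 230.6 on the sample-1 arrays against 171 and 147 at the sample-2 level, a difference of -0.50 ± 0.13 (adjusted p = 0.12). Its levels did not overlap, and the sample-1 arrays lay within 0.285 (SD) of their mean. Col5a1 measured 113 and 116 against 107 and 77.7, a difference of -0.28 ± 0.16 (adjusted p = 0.584), without overlap. Col5a3, a chain known from peripheral nerve, measured 170.3 and 141 against 158 and 109, with overlapping levels. Col3a1 and Col5a2 are direct neighbours among protein-coding genes in the reference annotation, and their differences were -0.47 and -0.50.

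Among the fibrillar chains known from cartilage, the type II chain Col2a1 measured 18.1 and 36.5 on the sample-1 arrays against 18.2 and 3.90 at the sample-2 level, with overlapping levels and a difference of -0.70 ± 0.33 (adjusted p = 0.473). Col11a1, the partner of Col2a1 in cartilage fibrils, measured 77.9 and 65.5 against 83.9 and 47.3, and Col27a1 48.7 and 42.4 against 52.5 and 34.7. Their levels overlapped as well. The other Col27a1 probe set had the opposite sign. At 26.1 and 26.3 against 35.6 and 33.4, it differed by 0.26 ± 0.21 (adjusted p = 0.7325), without overlap. Col11a2 at 4.60 to 31.9 and Col24a1 at 12.0 to 14.0 were too dim to be tested.

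**Figure D2:**
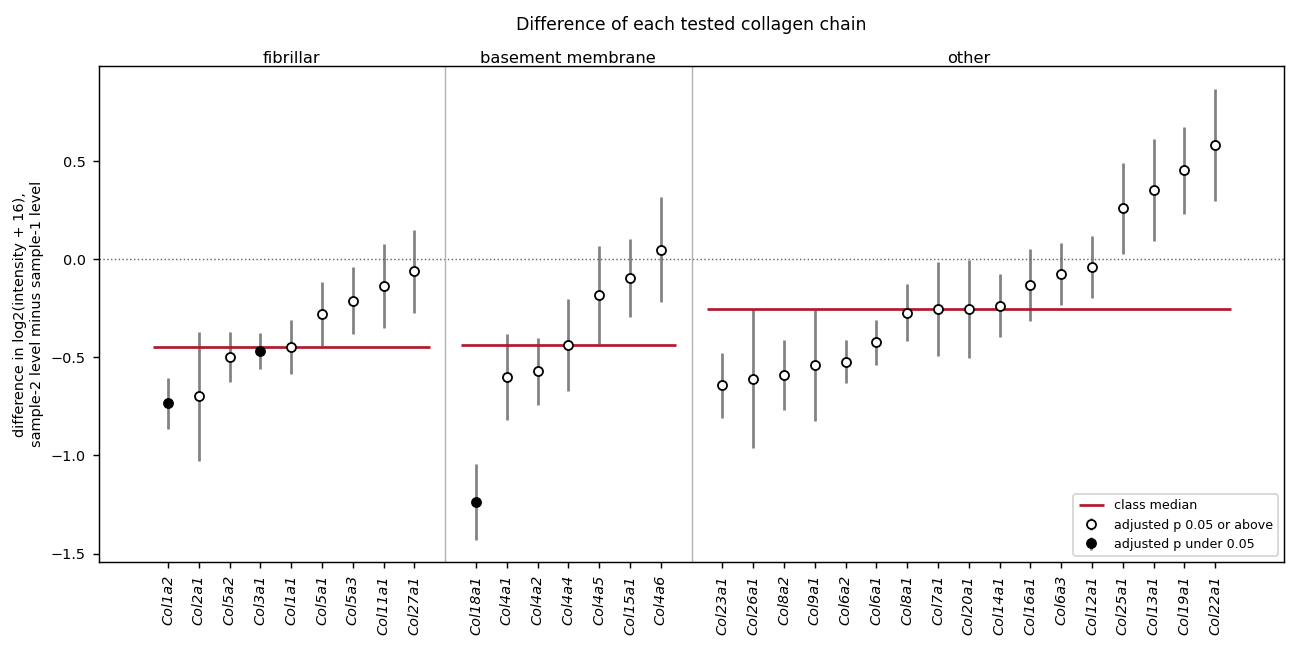
Fitted difference in log2(intensity + 16), sample-2 level minus sample-1 level, for the 33 tested collagen chains in 3 classes, with bars of 1 SE, filled points for an adjusted p under 0.05 and red lines for the class medians of -0.45, -0.44 and -0.25. All fibrillar points, each the brightest probe set of a chain, lie below 0. Col18a1 at -1.24 is the lowest point of all, and the 4 highest points, from 0.26 to 0.58, are chains of other types.

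Of the 7 tested basement membrane chains 6 lay below 0 and 1 fell, with a median difference of -0.44. Col18a1 measured 113 and 83.2 on the sample-1 arrays against 35.4 and 28.8 at the sample-2 level. The levels were far apart, and Col18a1 fell by 1.24 ± 0.19 (adjusted p = 0.0172). Its other probe set, whose ID ends in _s_at and which can match more than 1 transcript, measured 63.8 and 53.3 against 62.9 and 37.5. There the levels overlapped, and the difference was -0.19 ± 0.21 (adjusted p = 0.812). With the mean of both probe sets, Col18a1 differed by -0.72 (adjusted p = 0.201). Which of the annotated transcripts each probe set reads was not examined here. Col15a1, the other multiplexin, measured 70.6 and 63.8 against 77.0 and 48.9, with overlapping levels and a difference of -0.10 ± 0.20 (adjusted p = 0.912).

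The type IV network of most basement membranes contains the Col4a1 and Col4a2 chains together. Col4a1 measured 579 and 443 on the sample-1 arrays against 449.7 and 239 at the sample-2 level, a difference of -0.60 ± 0.22 (adjusted p = 0.315). Its levels overlapped, because array 1 of the sample-2 level lay just above array 2 of the sample-1 level. The second Col4a1 probe set, at 180 and 145 against 147 and 116, differed by -0.27 ± 0.15 (adjusted p = 0.566). With the mean of both probe sets, Col4a1 differed by -0.44 (adjusted p = 0.453). Col4a2 measured 270.3 and 237 against 204 and 133, without overlap, a difference of -0.57 ± 0.17 (adjusted p = 0.198). Both chains were lowest on array 2 of the sample-2 level. With only that sample-2 array in the fit, Col4a1 differed by -1.04 (adjusted p = 0.00894) and Col4a2 by -0.86 (adjusted p = 0.0286). A fit with 1 array at a level takes its spread from the other level and assumes that the lone array varies like those. With only the other sample-2 array, they differed by -0.17 (adjusted p = 0.816) and -0.29 (adjusted p = 0.616). The annotated starts of these genes span 22 bases on chromosome 8 (GRCm38.p6), on opposite strands.

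The other type IV chains, which form the specialised networks of kidney, lung and some epithelia, were dim. Col4a4 measured 38.4 and 29.1 on the sample-1 arrays against 23.8 and 17.7 at the sample-2 level, without overlap (adjusted p = 0.547). Col4a5 at 24.9 to 47.3 and Col4a6 at 13.5 to 22.0 overlapped between levels, and Col4a6 was the 1 basement membrane chain above 0, at 0.05 ± 0.27. Col4a3 at 1.84 to 16.1 was too dim to be tested.

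Among the 17 tested chains of other types, 13 lay below 0, 4 lay above 0 and 0 passed in either direction, while 4 had an unadjusted p under 0.05, all lower. Their median difference was -0.25. Type VI collagen forms beaded filaments between cells and fibrils, and endoneurial fibroblasts and Schwann cells are known to make it. Col6a2 measured 346 and 330.0 on the sample-1 arrays against 230.0 and 231 at the sample-2 level, a difference of -0.52 ± 0.11 (adjusted p = 0.059). Col6a1, its neighbour on chromosome 10, measured 250.2 and 261 against 190.1 and 183, a difference of -0.42 ± 0.12 (adjusted p = 0.154). Neither gene overlapped between levels. Col6a3, the third chain of the trimer, measured 96.8 and 113 against 109 and 89.1, with overlapping levels and a difference of -0.08 ± 0.16 (adjusted p = 0.914).

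Col23a1, a transmembrane collagen, measured 172 and 168 on the sample-1 arrays against 84.2 and 126 at the sample-2 level, without overlap. Its difference was -0.64 ± 0.17 (adjusted p = 0.132), and its other probe sets differed by -0.62 and -0.28 and did not pass. Col8a1 and Col8a2 form the short-chain networks of vessel walls and of the corneal Descemet membrane. Col8a2 measured 84.4 and 70.3 against 50.5 and 41.6, a difference of -0.59 ± 0.18 (adjusted p = 0.213). Col8a1 measured 109 and 112 against 83.8 and 93.2, a difference of -0.27 ± 0.15 (adjusted p = 0.542). Neither overlapped between levels.

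The fibril-associated collagens, which sit on the surface of fibrils, showed both signs, with 5 of 7 tested below 0 and a median of -0.13. Col12a1 measured 120.1 and 101 on the sample-1 arrays against 94.7 and 119.8 at the sample-2 level, a difference of -0.04 ± 0.16 (adjusted p = 0.959) with overlapping levels. Col14a1 measured 77.8 and 86.1 against 67.5 and 66.7 without overlap, and Col16a1 104 and 101 against 115 and 73.8 with overlap. Col22a1, known from tissue junctions such as the muscle-tendon junction, measured 10.8 and 10.5 against 33.0 and 16.5, a difference of 0.58 ± 0.29 (adjusted p = 0.493). Col19a1 measured 31.4 and 21.7 against 46.2 and 37.8 (adjusted p = 0.493). These and the transmembrane chains Col13a1 and Col25a1 were the 4 other chains above 0, and both sample-2 arrays lay above both sample-1 arrays for each. Col22a1 and Col13a1 lay under the filter's intensity of 14.3 on both sample-1 arrays and entered the test only through their sample-2 values, so their sign is not independent of the filter. None of the 4 exceeded an intensity of 46.2 on any array.

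Col26a1 measured 38.0 and 26.6 on the sample-1 arrays against 32.3 and 4.50 at the sample-2 level, so its difference of -0.61 ± 0.35 (adjusted p = 0.581) rested on array 2 of the sample-2 level. Without that array it was 0.010. Col7a1, the anchoring fibril chain of skin, measured 28.6 and 31.7 against 18.0 and 28.0 (adjusted p = 0.768). Col9a1, which coats cartilage fibrils, measured 20.8 and 33.0 against 18.8 and 8.47, and Col20a1 23.6 and 25.7 against 14.6 and 22.0. All 3 of Col7a1, Col9a1 and Col20a1 were without overlap, and none passed. Col9a1 had a sample-2 mean of 13.7, under the filter's intensity of 14.3, so its sign is not independent of the filter. Col6a4, Col6a5, Col9a2, Col9a3, Col10a1 and Col17a1 ranged from 0.774 to 17.7 and were too dim to be tested. The filter lay at a mean log2 value matching an intensity of 14.3, where Col13a1, at 12.2 to 21.2, was the dimmest chain tested and Col11a2, at 4.60 to 31.9, the brightest not tested.

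Within arrays, the 3 classes were described by the median over their tested chains of the log2 value minus the mean of the sample-1 arrays, which makes the sample-1 values mirror each other. The fibrillar chains had medians of 0.07 and -0.07 at the sample-1 level against -0.27 and -0.48 at the other. The basement membrane median was 0.14 and -0.14 against -0.21 and -0.56. The median of the other types was 0.01 and -0.01 against -0.23 and -0.21. In each class both sample-2 arrays lay below both sample-1 arrays, and the fibrillar and basement membrane chains were lowest on array 2 of the sample-2 level. That array was the lowest of the 4 for 22 of the 33 tested chains, against 26.5% of all genes tested. Without it, 21 of 33 chains lay below 0 and 2, Col18a1 and Col23a1, passed. The difference between classes was not tested, since chains are not replicates.

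Of the 18 genes with more than 1 tested probe set, 13 had every one below 0, 2 had every one above 0 and 3 had mixed signs. The genes with mixed signs were Col12a1, Col27a1 and Col4a5. Each array was also left out in turn, with the filter on low signal set anew on the remaining 3. Without array 1 of the sample-1 level 0 of 34 tested chains passed. Without array 2 of that level, the array with the high muscle markers, Col1a2, Col3a1 and Col18a1 passed and 26 of 32 chains lay below 0. Without array 1 of the sample-2 level Col1a2, Col18a1, Col4a1 and Col4a2 passed. The adjusted p of Col18a1 ranged from 0.0164 to 0.102 and was above 0.05 only without sample-1 array 1. That of Col1a2 spanned 0.00198 to 0.111 and exceeded 0.05 when sample-1 array 1 (0.111) or array 2 of the sample-2 level (0.0825) was dropped. That of Col3a1 ranged from 0.0367 to 0.213, and it passed only without sample-1 array 2. Col23a1 passed without sample-2 array 2 alone (adjusted p = 0.043).

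Genes that make, cut or bind collagen, its matrix partners and regulators were taken from lists, with 103 in the table and 92 tested. Of these 65 lay below 0, 3 fell and 0 rose, while 22 had an unadjusted p under 0.05 in the lower and 3 in the higher direction. Over all 13542 genes tested, 51.2% lay below 0, 0.561% were called lower and 0.295% higher. An unadjusted limma p under 0.05 in the lower direction was found for 899 of the 13542. The 3 genes of the lists that fell were Pcolce, Lum and Dcn. Pcolce enhances the removal of the carboxy-terminal propeptide of fibrillar procollagens. It measured 726 and 677 on the sample-1 arrays against 461 and 487 at the sample-2 level, and fell by 0.55 ± 0.09 (adjusted p = 0.0263). The small leucine-rich proteoglycans Lum and Dcn bind fibrils and regulate their growth. Lum fell by 0.73 ± 0.11 (adjusted p = 0.0172), and Dcn, at 4666 and 4229.7 against 3316 and 3232, fell by 0.44 ± 0.07 (adjusted p = 0.0174). With the mean of a gene's probe sets Dcn differed by only -0.24 (adjusted p = 0.476). In that setting Pcolce differed by -0.53 (adjusted p = 0.079) and Lum by -0.73 (adjusted p = 0.054). With arrays left out, the adjusted p of Pcolce was above 0.05 each time, at 0.0522 to 0.111. That of Lum, at 0.0129 to 0.0818, was above it when the array dropped was array 1 of the sample-1 level or array 2 of the sample-2 level, and that of Dcn, at 0.0174 to 0.112, in the first of these cases. The number of these genes that fell was 0 and 6 when array 1 or array 2 of the sample-1 level was dropped, and 8 and 2 when array 1 or array 2 of the sample-2 level was.

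Among hydroxylases and glycosyltransferases that modify the chains in the endoplasmic reticulum, 12 of 14 tested lay below 0 and 0 passed (1 lower and 1 higher at an unadjusted p under 0.05), with a median of -0.12. The largest differences were those of the prolyl 3-hydroxylase genes P3h1, at -0.53, and P3h3, at -0.36. Among 9 chaperone and secretion genes 5 lay below 0, 0 passed (2 lower unadjusted) and the median was -0.02. Serpinh1, the collagen-specific chaperone HSP47, measured 547 and 473 against 386 and 308, a difference of -0.54 ± 0.12 (adjusted p = 0.0844), and Tmem38b, an ion channel of the endoplasmic reticulum, differed by -0.46 (adjusted p = 0.22). Of 5 procollagen processing genes 3 lay below 0 and Pcolce fell, with a median of -0.20.

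Of 4 lysyl oxidase genes, whose enzymes cross-link collagen and elastin, 3 lay below 0 and 0 passed (1 lower unadjusted), with a median of -0.23. Lox measured 282 and 190.3 on the sample-1 arrays against 181 and 31.6 at the sample-2 level. Its level on array 2 of the sample-2 level was far below the others, and the difference was -1.35 ± 0.46 (adjusted p = 0.268). Loxl3 differed by -0.32 (adjusted p = 0.619). Of 12 collagen-cutting enzymes and inhibitors 9 lay below 0 and 0 passed (3 lower and 2 higher unadjusted), with a median of -0.16. Mmp2, a gelatinase of fibroblasts, measured 134 and 131 against 83.5 and 80.3, a difference of -0.60 ± 0.14 (adjusted p = 0.094). Mmp8, the collagenase of neutrophil granules, measured 25.3 and 29.4 against 57.1 and 73.1, a difference of 0.90 ± 0.20 (adjusted p = 0.0774). All 8 tested neutrophil markers lay above 0 and 6 rose, with summed intensities of 3303 and 3954 on the sample-1 arrays against 6625 and 8329 at the sample-2 level. Their part in the Mmp8 value was not tested.

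Of 7 tested collagen receptor genes 4 lay below 0 and 0 passed (1 lower unadjusted), with a median of -0.08. Mrc2, an endocytic receptor that takes up collagen fragments, differed by -0.33 (adjusted p = 0.625), and Adgrg6, a Schwann cell receptor that binds type IV collagen, by -0.32 (adjusted p = 0.402). Among 16 fibril partners 12 lay below 0, Lum and Dcn fell and 9 had an unadjusted p under 0.05, all lower, with a median of -0.42. Among 13 basement membrane partners, the laminins, nidogens and their neighbours, 10 lay below 0 and 0 passed (3 lower unadjusted), with a median of -0.11. Of these Lamb1 differed by -0.48 (adjusted p = 0.436) and Sparcl1 by -0.40 (adjusted p = 0.053). Of 12 regulators of collagen genes 7 lay below 0 and 0 passed (0 unadjusted), with a median of -0.06, and the largest differences were those of Ccn2 at -0.31 and Smad3 at -0.28.

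**Figure D3:**
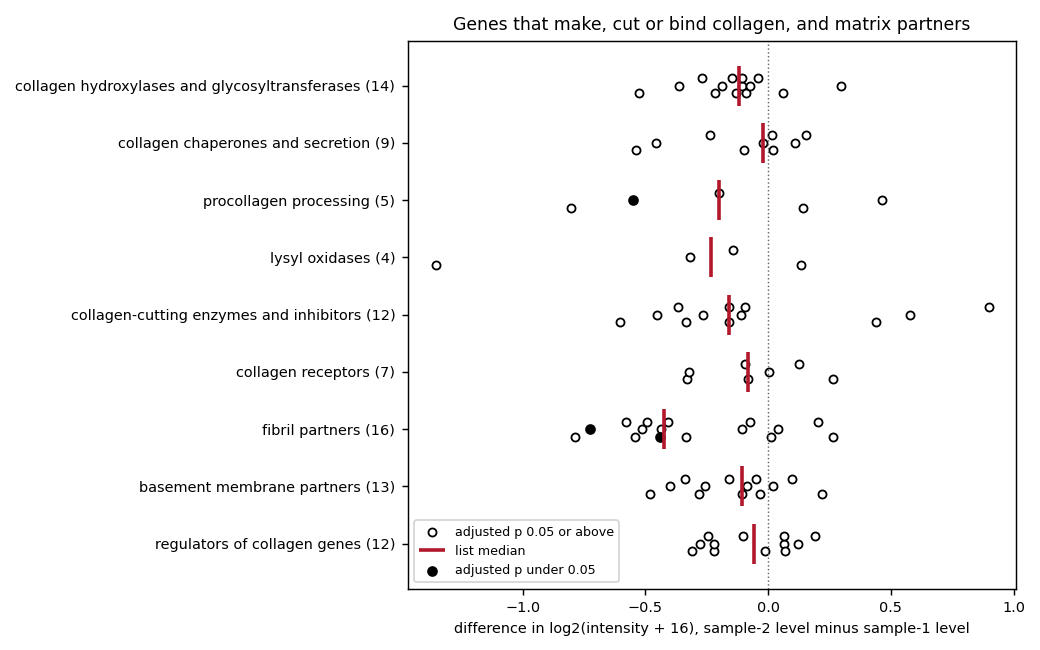
Fitted difference in log2(intensity + 16), sample-2 level minus sample-1 level, for each tested gene of 9 lists, with the number tested in brackets, filled points for an adjusted p under 0.05 and red lines for the list medians. The fibril partners have the lowest median, at -0.42, and the filled points are Pcolce, Lum and Dcn.

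Markers of several cell types that make collagen are given beside these values. Over all genes tested, 51.2% lay below 0 and 0.561% were called lower. Of 14 tested fibroblast and meningeal markers 12 lay below 0 and 4 fell, with a median of -0.34. The summed intensity of the list was 11128 to 12636 at the sample-1 level and 7087 to 7235 at the sample-2 level. Most of it came from Ptgds (mean of 4990 against 2203) and Dcn (4448 against 3274). Ptgds fell by 1.17 ± 0.08 (adjusted p = 9.37e-05) and Mfap5 by 1.01 ± 0.13 (adjusted p = 0.00628), and Lum and Dcn are on this list too. All 10 Schwann cell markers lay below 0 and 2, Pmp2 and Ugt8a, fell, with a median of -0.57 and sums of 20432 to 22728 against 14941 to 19514. All 6 perineurial markers lay below 0 and 0 passed (2 lower unadjusted), with a median of -0.39 and sums of 990.5 to 996 against 844 at both sample-2 arrays. Slc22a6 and Mfap4 of the fibroblast list were too dim to be tested, and no detection calls were used to mark any marker as present or absent. Ptgds, Mfap5 and Pmp2 passed whichever array was left out, while Ugt8a missed the threshold when sample-1 array 1 (adjusted p = 0.143) or array 2 of the sample-2 level (adjusted p = 0.135) was dropped. Without the filter on low signal the adjusted p was 0.076 for Ptgds, 0.190 for Mfap5, 0.132 for Pmp2 and 0.407 for Ugt8a. Without the trend it was 0.305, 0.415, 0.351 and 0.483. With the mean of a gene's probe sets Ptgds and Pmp2 passed (0.00712 and 0.0267), while Mfap5 and Ugt8a did not (0.117 and 0.220). The part of these cell types in the collagen differences was not tested.

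Other cell types with basement membranes or collagen were covered by further lists. Of 10 endothelial markers 6 lay below 0 and 0 passed (1 lower unadjusted), with a median of -0.12 and sums of 998 to 1035 against 854 to 1011. Of 9 pericyte and smooth muscle markers 5 lay below 0 and 0 passed (3 lower and 2 higher unadjusted), with a median of -0.04. All 6 satellite glia markers lay below 0 and 0 passed (0 unadjusted), with a median of -0.06. Of 6 tested cartilage markers 1 lay below 0 and 0 passed (0 unadjusted), with a median of 0.12, while Matn1, Matn3 and Ucma were too dim to be tested. Of 3 tested bone markers 2 lay below 0 and 0 passed (0 unadjusted), and Dmp1, Mepe and Phex were too dim. All 14 skeletal muscle markers lay below 0 and Myh2 fell, with a median of -1.08. Myh2, a fast muscle myosin, measured 42.8 and 119.6 on the sample-1 arrays against 2.16 and 11.7 at the sample-2 level, under the filter's intensity there, and was tested only because of its sample-1 values. The median of the muscle list relative to the sample-1 mean was 1.12 on array 2 of the sample-1 level and -1.12 on array 1, and without array 2 of that level Myh2 did not pass (adjusted p = 0.151), nor did it without array 1 of the sample-2 level (adjusted p = 0.0718).

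**Figure D4:**
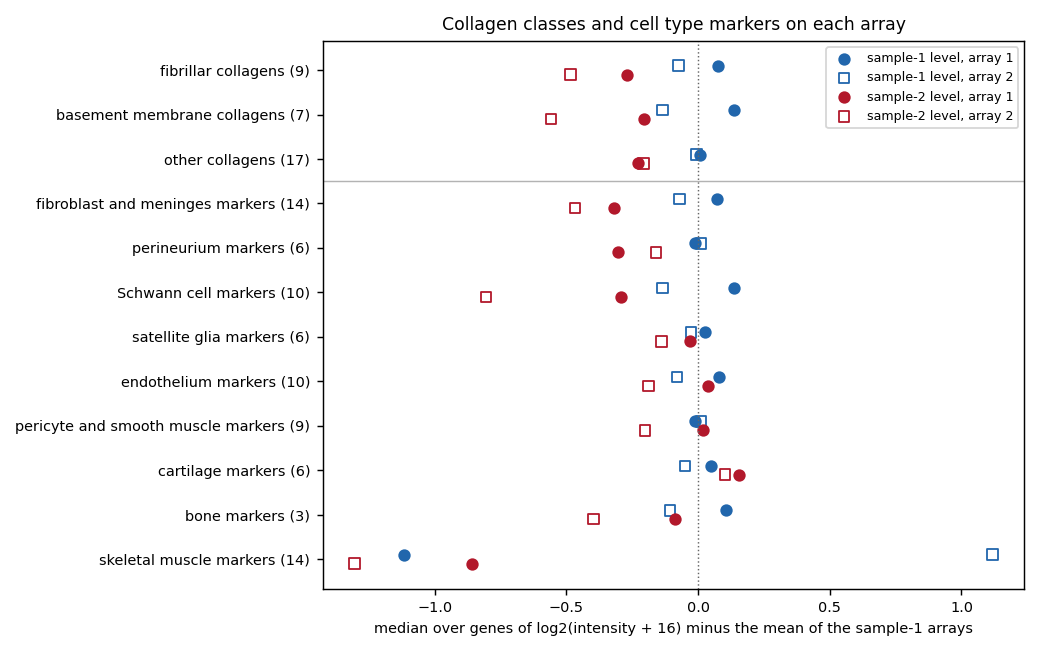
Median over genes of log2(intensity + 16) minus the mean of the sample-1 arrays, for the 3 collagen classes and 9 marker lists on each array, with the number of tested genes in brackets. Array 2 of the sample-2 level is lowest for fibrillar and basement membrane collagens, fibroblast markers and Schwann cell markers (-0.48, -0.56, -0.47 and -0.80). It is also lowest for skeletal muscle, bone, pericyte and smooth muscle, endothelial and satellite glia markers (-1.30, -0.40, -0.20, -0.19 and -0.14). It is not the lowest for the other collagens, perineurium or cartilage markers. Skeletal muscle markers are highest on array 2 of the sample-1 level, at 1.12.

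The remaining lists showed the following values. Of 9 macrophage markers 8 lay below 0 and 0 passed (4 lower unadjusted), with a median of -0.31. Of 3 tested adipocyte markers 1 lay below 0 and 0 passed (1 lower and 1 higher unadjusted). Of 2 tested red cell markers Slc4a1 rose, but not when sample-1 array 1 (adjusted p = 0.112) or array 2 of the sample-2 level (adjusted p = 0.173) was dropped. Of 12 sensory neuron markers Tac1 rose and 3 lay below 0, with a median of 0.07, and Tac1 still passed only when sample-2 array 1 was the array left out (adjusted p from 0.045 to 0.245). The Slc4a1 probe set has an ID that ends in _x_at. Without IDs that end in _x_at or _s_at, Slc4a1 differed by 0.76 (adjusted p = 0.0848), and with the mean of its probe sets by 0.63 (adjusted p = 0.201). Neither Slc4a1 nor Tac1 passed without the filter on low signal or without the trend. Because each array has the same trimmed mean, each value is relative to the other RNA on its array.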

How the data were processed

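The deposited table holds 1 linear intensity per probe set and array, and which software and steps the authors used is not given in the sources used here. The deposited intensity values were kept, taken as log2(intensity + 16), and probe sets under the 40th percentile of the mean (an intensity of 14.3) and 64 control probe sets were left out. The pseudocount makes differences of dim probe sets smaller than the true ratio, and no detection calls were used. The remaining 27022 were fitted with limma 3.58.1 (R 4.3.3; lmFit, eBayes with an intensity trend, 2 residual degrees of freedom), with no covariate, and adjusted over all of them. The fit was tested on simulated data. Gene symbols came from the platform annotation, and all 42 chains matched a RefSeq gene (GRCm38.p6) by gene ID.

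The chains named in full were those past the threshold, the brightest and the most different of each structural subtype, and the partner chains of types I, IV, V and VI. Names from the other lists were limited to 4 of a list's called genes or, with no call, its 2 most different genes, and several marker lists are given by counts alone. The chains and lists were chosen with earlier results of these data known. Lum and Dcn are each on 2 lists and Comp on 2. The alternatives tried were a pseudocount of 1 or 64, no filter or one at the 60th percentile, quantile normalization, median centring, the array number as a replicate block, no trend, the mean of a gene's probe sets, leaving out probe set IDs that end in _x_at or _s_at, and leaving out each array. For the pathway and marker lists these were added after seeing the data.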

Additional observations from a re-analysis of the deposited data

How the results depend on the processing

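The number of chains that fell was 3. It was 0 with no filter on low signal, 0 without the trend and 0 with the mean of a gene's probe sets (10, 11 and 10 chains lower and 0, 3 and 0 higher at an unadjusted p under 0.05 in limma), 1 with arrays centred on their medians, which left Col18a1, and 10 with the array number as a replicate block. Genes called over the whole table went from 116 to 3, 1, 35, 69 and 501 in these settings. Leaving out each array gave 0 to 4, with 0 without sample-1 array 1, where 11 were lower and 1 higher unadjusted. No chain rose under any setting tried. The pathway genes that fell, 3 in all, were 0 with no filter, without the trend or with the mean of probe sets, 5 with the 60th percentile filter, 14 with the replicate block and 0 to 8 with an array left out, in settings applied to them after the data were seen. The labels do not say that same-numbered arrays share an animal or day, so their numbers are not taken as pairs. The deviations of same-numbered arrays correlated at r = 0.03 over all tested probe sets, which does not settle this for part of the genes. The fibrillar and basement membrane medians were higher on array 1 than on array 2 at both levels, unlike those of the other types. The pseudocount of 64 gave class medians of -0.28 (fibrillar), -0.21 (basement membrane) and -0.12 (other), and no filter gave -0.28 and -0.13 for fibrillar and other types. For other types the median was -0.31 with a pseudocount of 1, -0.27 with the 60th percentile filter, quantile normalization or median centring, and -0.13 with the mean of probe sets. Leaving out each array gave -0.48 to -0.27, -0.57 to -0.21 and -0.29 to -0.20, the smallest fibrillar and basement membrane values without sample-2 array 2. With arrays left out the difference of Col12a1 ranged from -0.19 to 0.11, Col15a1 from -0.36 to 0.16, Col26a1 from -1.23 to 0.010 and Col6a3 from -0.20 to 0.051, changing sign. No setting moved the median of all genes by over 0.1. With 2 arrays a level, dim chains limit what could be detected.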
